A study of Mus musculus with 98 samples.

Results

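Stra6, the cell-surface receptor that takes retinol up from its plasma carrier, was followed in the brain, muscle and liver of mice with human or murine liver cells, beside the 2 carrier genes themselves in the mouse and in the human rows of the liver counts. The set holds 5 genes: mouse Stra6 (ENSMUSG00000032327), mouse Rbp4 (ENSMUSG00000024990), mouse Ttr (ENSMUSG00000061808), human RBP4 (ENSG00000138207) and human TTR (ENSG00000118271). Stra6 was selected on its measured level in the arcuate nucleus, which differed between the arms, so that difference is described here and not tested. The mouse genes were found in both count tables, which hold 37418 and 20415 rows, and the human genes in the liver table.

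All animals were 10-week-old male FRGN mice, an immunodeficient strain on a non-obese diabetic background that carries Fah-/-, Rag2-/- and Il2rg-/-. Loss of Fah, an enzyme of tyrosine breakdown, kills the host's own hepatocytes unless the drug nitisinone is given, and all mice were cycled on that drug and on antibiotics. Livers had been repopulated with human hepatocytes (Hu) or with murine hepatocytes (Mu), so the Mu mice are transplanted controls of the same genotype. Hepatocytes are the cells replaced: stellate, endothelial and immune cells of both arms stay those of the host, and Hu livers can keep mouse hepatocytes. Liver, skeletal muscle, the arcuate nucleus (ARC, a feeding centre of the hypothalamus) and the suprachiasmatic nucleus (SCN, which holds the master clock) were taken 6 times a day, at ZT 2, 6, 10, 14, 18 and 22, where ZT (zeitgeber time) counts hours from the start of light. Liver and muscle each gave 15 Hu and 12 Mu libraries, and each brain region 10 Hu and 12 Mu libraries, with 1 Hu library each at ZT 6 and ZT 22 in both brain regions. The labels do not say which libraries of different tissues came from the same mouse, so the ARC and the SCN are not taken as separate animals. Nor do they say that replicates are separate animals, so p-values measure the spread between these samples.

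Retinol (vitamin A) is stored in the liver, mainly as retinyl ester in stellate cells, and is released into plasma by hepatocytes bound to RBP4. RBP4 travels in a complex with transthyretin (TTR), which keeps the small carrier from being filtered by the kidney. Stra6 is found above all at blood-tissue barriers such as the retinal pigment epithelium and the brain vasculature, while the liver uses the related receptor Stra6l. Inside cells retinol is oxidised through retinal to retinoic acid, the ligand of the RAR and RXR nuclear receptors.

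In the GENCODE M21 annotation of GRCm38, Stra6 lies on the plus strand at chr9:58063788-58153996 and its principal transcript Stra6-202 has 19 exons between 58129088 and 58153955. Rbp4 lies on the minus strand at chr19:38116629-38125281, and its principal transcript Rbp4-202 has 6 exons. The 250 bases before a RefSeq start site (GRCm38.p6) are shown for both, since the results turn on Stra6 in the ARC and on Rbp4 in the mouse rows of the liver. For each gene the window is the one of its RefSeq windows that touches no annotated exon, of 4 for Stra6 and 2 for Rbp4. The Stra6 window ends at the start of the principal transcript, and the Rbp4 window ends at a RefSeq start at 38125321, upstream of the start of Rbp4-202 at 38124828. They are written 5′ to 3′ on the gene's strand, in lower case throughout because no searched motif was found in either. The first spans chr9:58128838-58129087 and the second chr19:38125322-38125571.
Stra6: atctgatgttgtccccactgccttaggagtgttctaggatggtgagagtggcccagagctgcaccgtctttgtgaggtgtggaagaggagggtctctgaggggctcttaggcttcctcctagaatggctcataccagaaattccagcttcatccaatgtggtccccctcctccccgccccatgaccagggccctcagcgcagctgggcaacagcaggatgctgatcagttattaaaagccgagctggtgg
Rbp4: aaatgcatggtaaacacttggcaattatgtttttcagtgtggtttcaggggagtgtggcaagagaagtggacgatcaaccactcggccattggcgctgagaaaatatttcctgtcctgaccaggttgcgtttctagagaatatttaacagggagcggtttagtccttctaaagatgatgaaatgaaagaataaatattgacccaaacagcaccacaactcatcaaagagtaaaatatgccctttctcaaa

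Short sequences were searched on both strands of these windows. AGGTCA, the half-site of many nuclear receptors including RAR and RXR, was in neither window and occurs in 14% of the 32536 mouse windows of the same length. Its direct repeat with a spacer of 5 bases, the DR5 form of a retinoic acid response element, which holds AGGTCA within it, occurs in 3 windows (0.00922%) and in neither of these. CACGTG, the E-box bound by CLOCK and BMAL1, occurs in 6.04% and TATAAA in 12.3% of windows, and neither is in these; the Rbp4 window not shown holds TATAAA. The Stra6 window is 56.4% G or C and the Rbp4 window 40.8%. No match says only that these letters are absent from these 250 bases.

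Libraries held 23.7 to 47.1 M counts in the ARC (M stands for 1e+06 counts) and 25.5 to 34.9 M in the SCN. Muscle libraries held 43.1 to 92.1 M and Mu livers 97.1 to 118.3 M. Hu livers held 22.95 to 122.2 M, of which 7.70 to 87.9 M fell in mouse rows. Human rows held 57.7% ± 21.4 (SD, n = 15) of the counts of Hu livers, with a range from 15.9% to 93.1%, and at most 0.0204% in Mu livers. The labels give a repopulation above 70% as the criterion for Hu mice, and 4 of 15 Hu livers had more than 70% of their counts in human rows, which is a share of RNA and not of cells. At 3 counts or fewer a gene was taken as not detectable at that library's depth. Levels below are CPM, the counts of a gene per 1e+06 counts in the mouse rows of its library unless another denominator is named, and they are not scaled by gene length, so levels of different genes are not compared. Differences are log2 Hu minus Mu over the day from edgeR's quasi-likelihood fit, with the standard error (SE), and adjusted p-values are Benjamini-Hochberg values over all genes tested in that tissue. A gene is called where the adjusted p is under 0.05.

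Stra6 in the ARC stood at 3.01, 5.39 and 10.4 CPM (lowest, median and highest of 10 Hu libraries) and at 1.08, 2.25 and 3.81 CPM in 12 Mu libraries. The means were 5.83 ± 2.18 (SD, n = 10) and 2.21 ± 0.755 (SD, n = 12), from 78 to 401 and from 31 to 110 counts. The fitted difference was 1.42 ± 0.19 (SE), a fold of 2.68. Of 10 Hu libraries 8 lay above every Mu library and 10 above the Mu median, so the groups overlapped in the 2 lowest Hu libraries, at ZT 18 (3.01 CPM) and ZT 2 (3.54 CPM). Compared only with Mu libraries of the same ZT, each Hu library was higher. At ZT 14, where both arms had their highest values, Hu libraries were at 10.4 and 5.51 CPM and Mu libraries at 2.74 and 3.81 CPM. At ZT 6, the lowest time in Mu, the Mu libraries were at 1.11 and 1.08 CPM and the lone Hu library at 5.00 CPM. Stra6 was the gene that the level test called in the ARC, 0.00663% of 15079 genes, which is the choice that brought it here and supports nothing further.

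**Figure D1:**
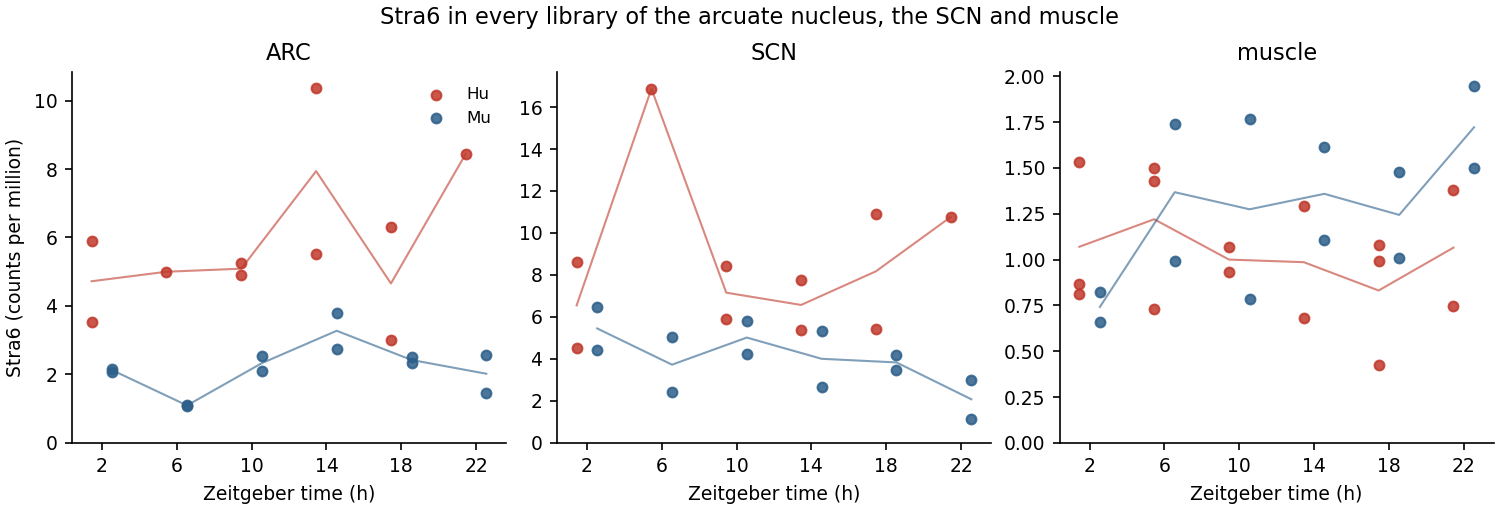
Stra6 in CPM (vertical axis, linear, from 0) in each library against zeitgeber time (h) in the ARC, the SCN and muscle; points are single libraries, red Hu and blue Mu, shifted sideways for sight, and lines join the means per time. In the ARC each Hu point lies above the Mu points of its time, in the SCN the Hu points reach 16.9 against 6.47 in Mu, and in muscle the arms overlap below 2 CPM.

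Stra6 was selected on the ARC, but earlier results of these data were known when the members were chosen. SCN libraries may also come from the same mice, so the SCN values are no independent support. In the SCN the lowest, median and highest values were 4.50, 8.10 and 16.9 CPM in Hu and 1.15, 4.20 and 6.47 CPM in Mu. All 10 Hu libraries exceeded the Mu median and 6 exceeded every Mu library. The means were 8.45 ± 3.71 (SD, n = 10) and 4.02 ± 1.54 (SD, n = 12), and the fitted difference was 1.09 ± 0.25 (SE), a fold of 2.13. This did not pass the test over all genes: the edgeR adjusted p was 0.9999 at an unadjusted p of 0.000271, which placed Stra6 at rank 2 of 15006 genes. No gene was called in the SCN (0% of genes) by edgeR, 325 genes had an unadjusted p under 0.05, and DESeq2 called 1 gene, which was not Stra6 (adjusted p 0.0790). Taken as a single value, with arms shuffled within ZT in all 11664 arrangements, the exact 2-sided permutation p was 0.00111 for a difference of 1.05 on the log2 scale; this test was chosen after the data were seen.

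By time, Hu and Mu libraries of the SCN overlapped at ZT 2, where Hu stood at 4.50 and 8.59 CPM and Mu at 6.47 and 4.43 CPM. They came close at ZT 10 (lower Hu value 5.89 CPM, higher Mu value 5.81 CPM) and at ZT 14 (5.36 and 5.34 CPM). At ZT 22 the lone Hu library was at 10.8 CPM and Mu at 1.15 and 3.00 CPM. In CPM the widest gap was at ZT 6, with the lone Hu library at 16.9 CPM and Mu at 5.03 and 2.42 CPM. That library also had the highest summed level of 8 meningeal fibroblast markers in the SCN (494 CPM, against a Hu median of 112 CPM) and the highest sum of 6 brain endothelium markers (343 CPM), and the highest Vwf, an endothelial gene (55.7 CPM). Without it the Stra6 difference in the SCN was 0.89. A Mu library at ZT 10 with a meningeal sum of 395 CPM had the highest Vwf of the Mu SCN (40.1 CPM). Its Stra6 was at 5.81 CPM, against a Mu median of 4.20 CPM and a highest Mu value of 6.47 CPM. The part of these cells in the difference was not tested. Set side by side, the Hu minus Mu difference was 1.42 in the ARC and 1.09 in the SCN, and the difference between the regions was not tested because the ARC value chose the gene.

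Sums of marker lists for other cells of these dissections overlapped between the arms, and some leaned the way of Stra6. The 6 brain endothelium markers, among them Cldn5 and Slc2a1, summed to between 165 and 247 CPM in Hu ARC (median 192) and between 158 and 253 CPM in Mu ARC (median 197), and 0 of 6 were called. In the SCN the medians were 275 CPM in Hu and 261 CPM in Mu. Sums of 9 tanycyte markers had medians of 118 CPM in Hu and 112 CPM in Mu in the ARC. Sums of 10 choroid plexus markers, which also sum high in liver and muscle, had medians of 103 and 120 CPM there. Sums of 8 meningeal fibroblast markers had ARC medians of 72.9 CPM in Hu and 63.4 CPM in Mu. Sums of 3 markers of the pars tuberalis, the pituitary tissue under the ARC, had ARC medians of 8.55 CPM in Hu (0.0771 to 11.3) and 2.69 CPM in Mu (0.0349 to 13.99), and 2 of these markers were tested. The part of these tissues in the Stra6 difference was not tested. None of the members of these lists was called in the ARC or the SCN. Over all genes the test called 0.00663% of 15079 in the ARC, which was Stra6, and 0% of 15006 in the SCN. The lack of calls therefore says nothing particular of the markers. In bulk tissue, fewer cells of a type and less RNA per cell cannot be told apart.

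In Mu mice alone, the fitted Stra6 level was 1.85-fold higher in the SCN than in the ARC (log2 difference 0.88 ± 0.21 SE, n = 12 libraries each). The Mu ARC values are among those that selected Stra6, so this too is a description with no test. Across the 21 pairs of ARC and SCN libraries with equal arm, ZT and number, the Stra6 levels had a correlation of 0.335 after the arm means were taken out, given as a description since the pairs may share a mouse.

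Daily rhythm was not found for Stra6. A 24 h cosine fit gave an amplitude of 0.47 (log2, mean to peak) in Mu ARC with an unadjusted p of 0.0755 (edgeR adjusted p 0.405), where 1.41% of genes were called rhythmic. In Hu ARC the amplitude was 0.23 (adjusted p 0.9999, 0.0995% of genes called), and in the SCN it was 0.32 in Mu (adjusted p 0.767, 0.207% of genes called) and 0.26 in Hu (adjusted p 0.964, 0.00666% called). The test of a different rhythm between arms gave adjusted p-values of 0.99996 in the ARC and 0.99999 in the SCN, where it called 0% of genes. In muscle the amplitudes were 0.22 in Mu (adjusted p 0.780, 5.31% of genes called) and 0.26 in Hu (adjusted p 0.567, 7.78% called), and the arms' rhythms were not told apart (adjusted p 0.576, 0.0704% called).

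Among 15079 genes of the ARC, the 5 whose log2 level went most like Stra6 across the 22 libraries were Vwf (Pearson r = 0.789), Fcna (0.743), Smc4 (0.725), Ocln (0.696) and Sec61a1 (0.694). These correlations include the arm difference that chose Stra6 and are a description. With arm means removed the values were 0.605 for Vwf, 0.460 for Fcna, 0.515 for Smc4, 0.647 for Ocln and 0.751 for Sec61a1. Across the 22 SCN libraries they were 0.618 for Vwf, 0.552 for Fcna, 0.0896 for Smc4, 0.364 for Ocln and 0.283 for Sec61a1. Vwf encodes von Willebrand factor, a clotting protein of endothelial cells, and its own Hu minus Mu difference in the ARC was 0.52 (edgeR adjusted p 0.463). The differences were 1.02 for Fcna (adjusted p 0.201), 0.14 for Smc4, 0.16 for Ocln and 0.04 for Sec61a1, none of them called. Vwf ranged from 6.67 to 12.2 CPM in Hu ARC and from 3.46 to 8.84 CPM in Mu ARC. The arms thus overlapped, with every Hu value above the Mu median of 5.46 CPM.

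Part of the annotated Stra6 gene, upstream of its principal transcript, overlaps Ccdc33 on the other strand. The library kit keeps strand, and whether the counting used it is not given in the sources used here. Ccdc33 was at 2.75 CPM in Hu and 2.84 CPM in Mu ARC (difference -0.05 ± 0.11 SE, adjusted p 0.999), and at 0.997 and 0.928 CPM in the SCN.

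In muscle Stra6 was low in both arms, at 0.424, 0.990 and 1.53 CPM (lowest, median and highest of 15 Hu libraries) and at 0.659, 1.29 and 1.95 CPM in 12 Mu libraries. The fitted difference, -0.36 ± 0.20 (SE), pointed the other way from the brain and did not pass the test (edgeR adjusted p 0.176), while 26.9% of muscle genes did. In liver Stra6 had 0 to 17 counts per library, and 10 of 15 Hu and 10 of 12 Mu livers were at 3 counts or fewer. That limit corresponds to between 0.0341 and 0.390 CPM in Hu and between 0.0254 and 0.0309 CPM in Mu livers, so Stra6 was not tested there and no fold is given. The order of its mean levels in Mu mice was therefore SCN (4.02 CPM), ARC (2.21 CPM), muscle (1.28 CPM) and liver (0.0220 CPM). Mu muscle and Mu ARC overlapped over the range from 1.08 to 1.95 CPM.

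Carrier expression in the liver moved in the other direction in mouse rows. Mouse Rbp4, the retinol carrier made by hepatocytes, stood at 301, 1788 and 2225 CPM in Hu livers (lowest, median and highest) and at 2376, 2583 and 3658 CPM in Mu livers. All 15 Hu livers lay below every Mu liver. The difference was -1.33 ± 0.22 (SE, edgeR adjusted p 9.49e-06), a fold of 0.397. Mouse Ttr, which encodes the partner protein transthyretin, stood at 518, 4378 and 5654 CPM in Hu and at 4959, 5871 and 8256 CPM in Mu livers. Of the Hu livers 13 of 15 lay below every Mu liver, and the difference was -1.35 ± 0.27 (SE, adjusted p 7.02e-05), a fold of 0.393. In this contrast 79.5% of genes were called, 37% as lower and 42.5% as higher in Hu, so being called lower is no mark of the carriers.

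The size of both liver differences depended on scaling. TMM factors averaged 1.24 in Hu and 0.776 in Mu livers. With library totals alone the differences were -0.72 for Rbp4 (adjusted p 0.000654) and -0.74 for Ttr (adjusted p 0.00300), and the median of all genes moved from 0.07 to 0.74. Relative to that median Rbp4 was at -1.40 with TMM and -1.46 with library totals, and Ttr at -1.41 and -1.48. The 9 hepatocyte markers moved the same way: 8 were lower in Hu, 0 higher, with a median of -1.30 under TMM. Over all genes 37% were lower and 42.5% higher under TMM. With library totals 1938 of all 14977 genes were lower and 10876 higher. Albumin (Alb) was at -0.78 ± 0.29 (SE) and Cyp2e1, a cytochrome P450 of the central lobule, at -4.72 ± 0.31 (SE). Markers of the host's other liver cells were also counted under TMM. Of these, 7 of 7 for stellate cells, 6 of 6 for sinusoidal endothelium and 5 of 5 for bile duct were higher. For Kupffer cells 3 of 6 were higher, and the other 3 were not called. The part of this shift of cell types in the carrier differences was not tested.

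Across the 15 Hu livers the mouse carriers fell as the human share of counts rose. Mouse Ttr had a Pearson r of -0.709 with the human share (permutation p 0.00151, adjusted 0.00755 over 10 relations) and a Spearman rho of -0.843 (adjusted p 0.00085). Mouse Rbp4 had r = -0.636 (permutation p 0.00387, adjusted 0.0129) and rho = -0.743 (adjusted p 0.00720). Without the 2 livers farthest from the median share the r values were -0.635 for Ttr and -0.740 for Rbp4. The lowest values of both genes came from 1 liver at ZT 18, with 93.1% of its counts in human rows (Rbp4 301 CPM, Ttr 518 CPM). Mouse Rbp4 and Ttr went together, with r = 0.935 (permutation p 4e-05, adjusted 0.0004), and 0.695 without the 2 farthest livers.

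**Figure D2:**
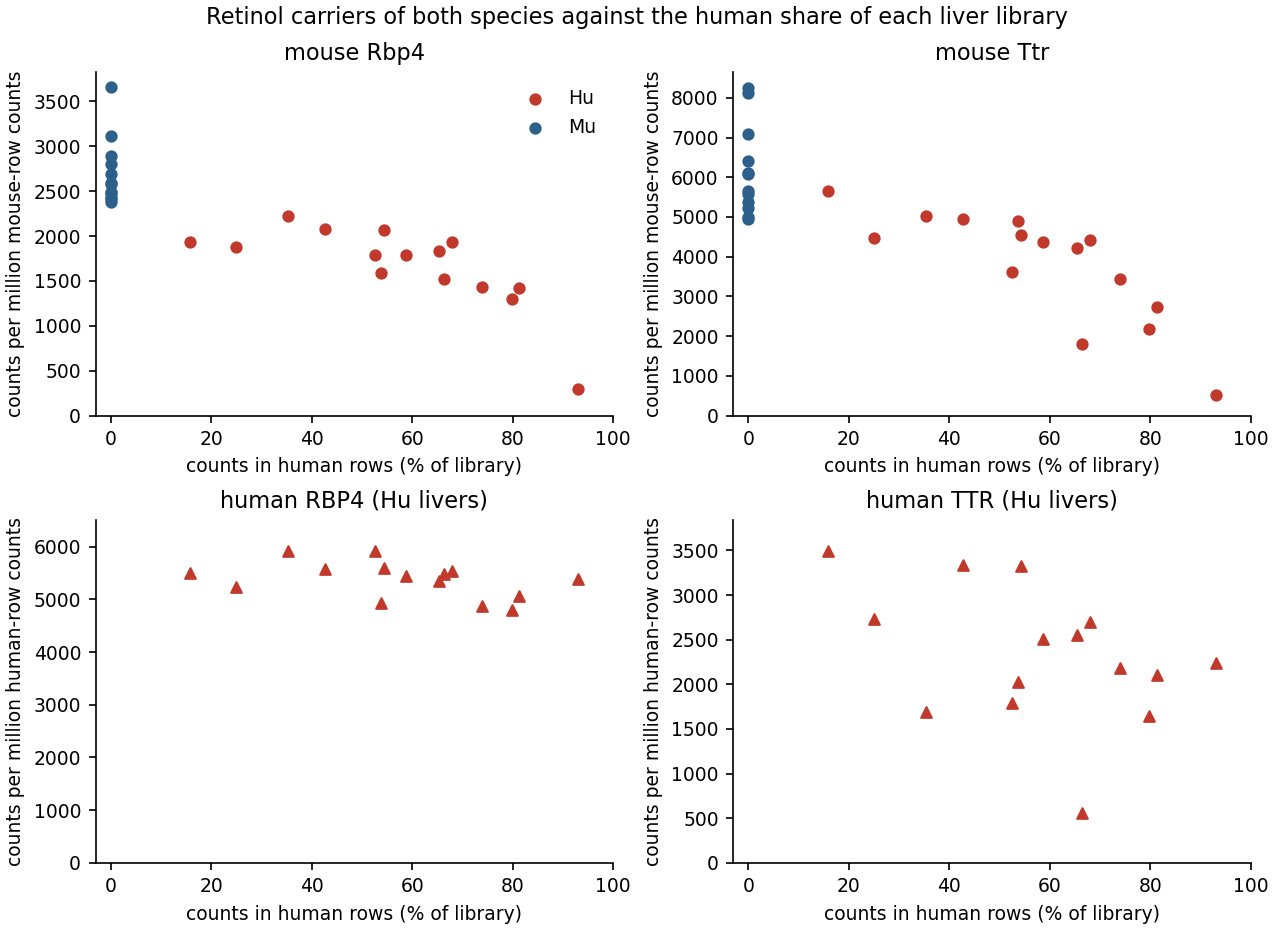
Mouse Rbp4 and Ttr in CPM of mouse rows (upper panels, red Hu, blue Mu) and human RBP4 and TTR in CPM of human rows (lower panels, Hu livers) against the percent of each library's counts in human rows; each point is 1 library. Mouse Rbp4 of all 15 Hu livers is below the lowest Mu value of 2376, and human RBP4 stays between 4792 and 5923.

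The ratio of mouse Rbp4 to mouse Ttr counts within a library needs no library size. Its log2 value was -1.11 ± 0.337 (SD, n = 15) in Hu and -1.17 ± 0.128 (SD, n = 12) in Mu livers. The difference of 0.06 was within the spread (permutation test with arms shuffled within ZT, p 0.558, adjusted 0.558 over 3 liver quantities). A Hu liver at ZT 10 had the highest ratio, -0.25, and without it the difference was 0.00. Among Hu livers the ratio was -1.55 at a human share of 15.9% and -1.25 at 24.96%, and it was -0.75, -0.94 and -0.79 in the 3 most human livers. Between these ends there was no steady rise: the lowest ratio, -1.63, was at 53.7%, and the liver at 73.9% was at -1.27. The relation of ratio and share was not tested.

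**Figure D3:**
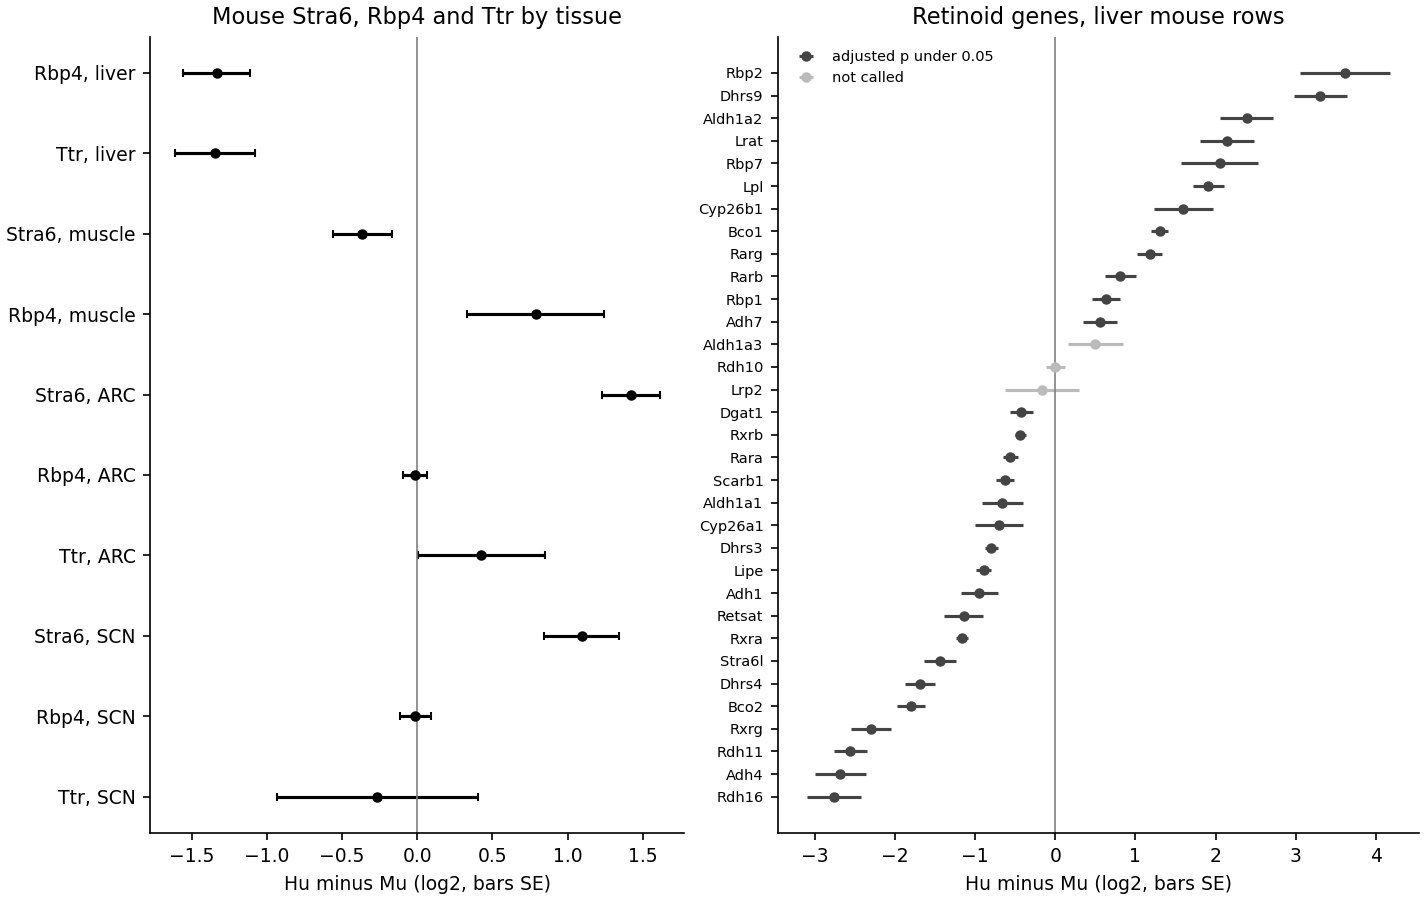
Left, the Hu minus Mu log2 difference with its standard error for each of the mouse genes in each tissue where it was tested; right, the same for 33 retinoid genes in liver mouse rows, dark where the adjusted p was under 0.05. On the left Rbp4 and Ttr are at -1.33 and -1.35 in liver, Stra6 is at 1.42 in the ARC and 1.09 in the SCN, and Rbp4 is at 0 within its error in both brain regions.

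Human RBP4 in the Hu livers ranged from 4792 to 5923 CPM of human rows, with a mean of 5370 ± 343 (SD, n = 15). Human TTR varied more, from 554 to 3497 CPM of human rows, with a mean of 2327 ± 769 (SD, n = 15). The lowest TTR value came from the ZT 10 liver named above, whose human RBP4 was at 5478 CPM and whose mouse Ttr was at 1804 CPM; the next lowest human TTR value was 1642 CPM. Relative to all rows of the library, RBP4 averaged 3070 CPM and TTR 1277 CPM. In Mu livers, which received no human cells, the same rows held 8 to 97 counts for RBP4 and 4 to 40 for TTR, against at least 71261 and 21631 in Hu livers. Neither human carrier had a daily rhythm: RBP4 had an amplitude of 0.08 (edgeR adjusted p 0.742) and TTR of 0.28 (adjusted p 0.749), where 1.08% of 12832 human rows were called rhythmic.

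With each gene as CPM of its own species' rows, no relation of human RBP4 with human TTR was found across the Hu livers (r = 0.0355, permutation p 0.899; rho = 0.218, permutation p 0.434). Human RBP4 had r = 0.248 with mouse Rbp4 (permutation p 0.387) and rho = 0.721 (permutation p 0.00327, adjusted 0.00817); r was 0.232 without the 2 farthest livers and reached 0.805 with 1 liver left out, so the linear relation depends on single livers. Human TTR and mouse Ttr had r = 0.401 (permutation p 0.0995, adjusted 0.234) and rho = 0.543 (permutation p 0.0395, adjusted 0.0707). Here too r reached 0.789 with 1 liver left out. With the human share, human RBP4 had r = -0.421 (permutation p 0.117) and human TTR r = -0.317 (permutation p 0.252). These values hold for that scale alone. As CPM of all rows, human RBP4 had r = 0.593 with human TTR (adjusted permutation p 0.0255), -0.687 with mouse Rbp4 and 0.946 with the share. Human TTR had 0.605 with the share on that scale. A level per all rows holds the share of its species as a factor. The r values per all rows thus follow in part from the denominator and are no test of the carriers.

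Added over both species, as CPM of all rows, carrier counts split in opposite directions. RBP4 plus Rbp4 came to 3845 ± 640 CPM (SD, n = 15) in Hu and 2709 ± 371 CPM (SD, n = 12) in Mu livers. The log2 difference was 0.50 (permutation test within ZT, p 0.00033, adjusted 0.000495), with 14 of 15 Hu livers above the Mu median. TTR plus Ttr came to 3106 ± 1103 CPM (SD, n = 15) in Hu and 6153 ± 1128 CPM (SD, n = 12) in Mu livers. The log2 difference was -1.07 (permutation p 1e-05, the smallest these draws can give, adjusted 3e-05), and 14 of 15 Hu livers lay below every Mu liver. Both sums rest on CPM of all rows: with TMM factors over all rows the RBP4 difference was 1.69 and the TTR difference turned to 0.12 (adjusted permutation p 0.586). The same factor per library scales both sums, so both moved up alike. TMM takes most genes as equal between libraries. Human rows, with at most 0.0204% of counts in Mu livers, do not meet this, so that scaling cannot decide the direction. Transcripts of the 2 species differ in length and mapping, which a sum of counts does not correct.

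Human rows gave 77.3% ± 18.05 (SD, n = 15) of the RBP4 sum in Hu livers, from 34.9% to 99.6%. They gave 46.5% ± 24.8 (SD, n = 15) of the TTR sum, from 10.4% to 98.3%. In every Hu liver the human part of the RBP4 sum was above that of the TTR sum. In the liver with the lowest human share, 15.9%, the human part was 34.9% of RBP4 and 10.4% of TTR. The 95% Wilson intervals of these single-library shares were at most 0.534 and 0.760 percentage points wide and cover counting error only.

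**Figure D4:**
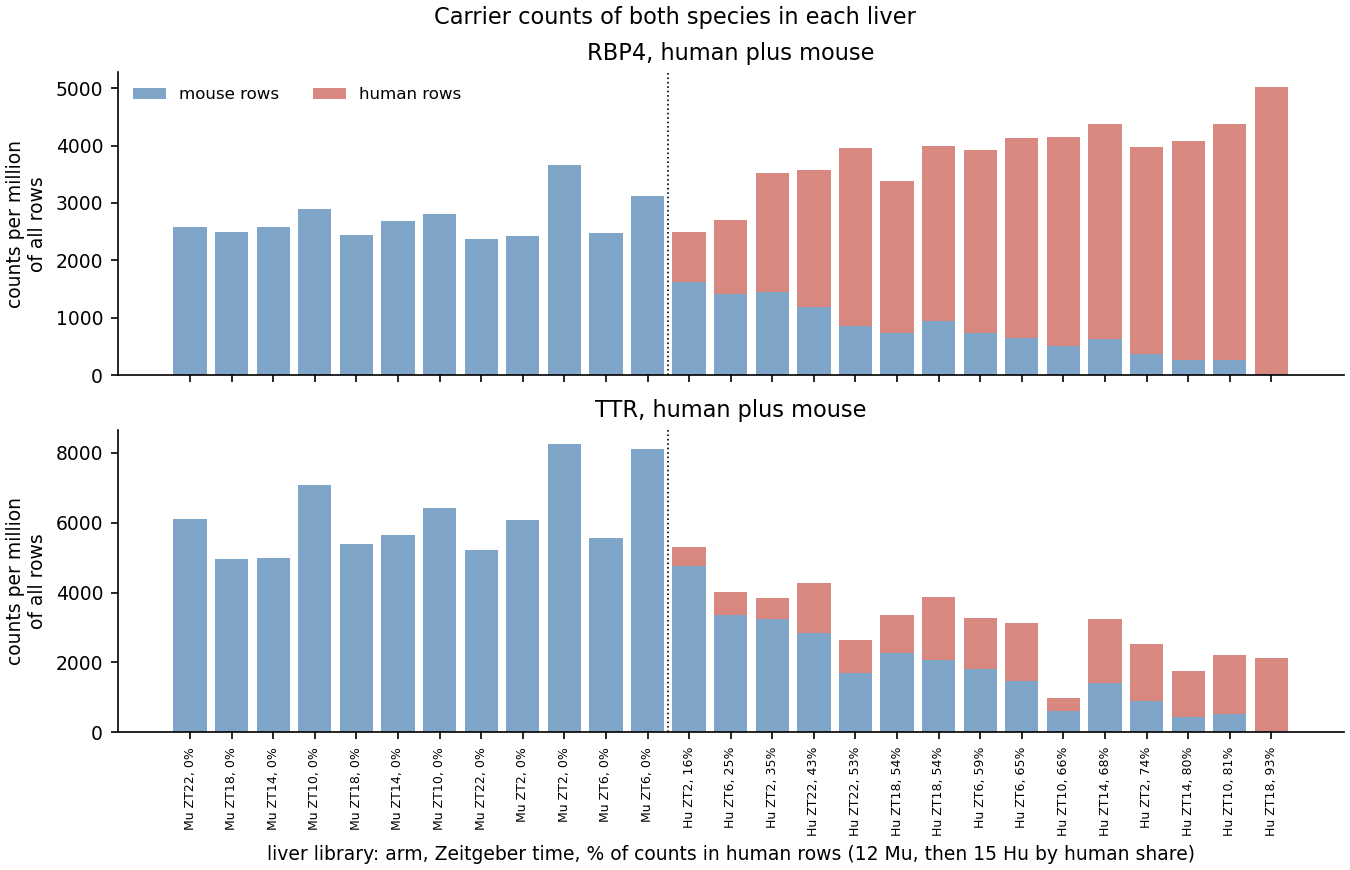
Carrier CPM of all rows in each liver (bars from 0), blue for mouse rows and red for human rows, with the 12 Mu livers left of the dotted line and the 15 Hu livers to its right in order of the human share; RBP4 above, TTR below. RBP4 sums reach 5028 in the most human liver, while TTR sums of Hu livers stay at or below 5312 and Mu livers lie between 4959 and 8255.

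Mouse Rbp4 and Ttr had no called rhythm in liver in either arm. The largest amplitude was 0.44 for Ttr in Hu livers (adjusted p 0.587), where 0.167% of genes were called; in Mu livers, where 17.3% were called, amplitudes were 0.10 for Rbp4 (adjusted p 0.955) and 0.23 for Ttr (adjusted p 0.838). Within the 12 Mu livers the 5 genes most like Rbp4 in log2 level were Naa10 (r = 0.984), Ndufa8 (0.981), Tst (0.980), Coa3 (0.973) and Acaa2 (0.972), a description over 12 libraries.

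Of 36 other genes of retinoid handling, 33 were tested in liver mouse rows; 12 were higher and 18 lower in Hu, with a median of -0.43 against 0.07 over all genes, of which 42.5% were higher and 37% lower. With library totals in place of TMM the list split into 16 higher and 9 lower, and all 14977 genes into 10876 higher and 1938 lower. Of 9 enzymes that act between retinol and retinal, 6 were lower, 2 higher and 1 not called under TMM: among the lower ones Rdh11 at -2.56 ± 0.21 (SE), Rdh16 at -2.76 ± 0.34, Adh4 at -2.68 ± 0.32, Dhrs4 at -1.69 ± 0.19 and Dhrs3 at -0.80 ± 0.08. Dhrs9, another retinol dehydrogenase, was higher, at 3.31 ± 0.33 (32.4 against 2.24 CPM). Of the carotenoid-cleaving enzymes, Bco1 was higher, at 1.30 ± 0.11, and Bco2 lower, at -1.80 ± 0.18. The nuclear receptor Rxra was lower, at -1.16 ± 0.08, as was Rxrg, at -2.30 ± 0.25. Lpl, the lipoprotein lipase that also frees retinyl esters for uptake, was higher, at 1.91 ± 0.19, and Lipe, a hydrolase of stored esters, lower, at -0.89 ± 0.10. With library totals Dhrs3 (-0.10, adjusted p 0.353) and Lipe (-0.21, adjusted p 0.0617) no longer passed; the other 10 kept call and direction.

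Stra6l and Lrat were named after their values were seen. Stra6l, the RBP4 receptor of liver cells, was lower in Hu livers at 121 ± 37.6 CPM (SD, n = 15) against 222 ± 70.1 CPM (SD, n = 12), a difference of -1.44 ± 0.20 (SE, edgeR adjusted p 9.71e-07). Lrat, which esterifies retinol for storage in stellate cells, was higher at 230 ± 243 CPM against 29.0 ± 5.98 CPM, a difference of 2.15 ± 0.34 (SE, adjusted p 3.77e-06). The sum of stellate markers was also higher in Hu, with a median of 1553 CPM in Hu and 485 CPM in Mu livers. The relation of Lrat with that sum across livers was not tested.

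No difference in Rbp4 between the arms was found in the brain. It ranged from 4.20 to 6.11 CPM in Hu ARC and from 3.81 to 6.68 CPM in Mu ARC, with a difference of -0.01 ± 0.08 (SE, 95% interval -0.18 to 0.16). In the SCN it ranged from 2.44 to 4.32 CPM in Hu and from 2.59 to 4.21 CPM in Mu, with a difference of -0.01 ± 0.10 (SE, 95% interval -0.23 to 0.21). The difference between these differences was -0.00 ± 0.13 (SE, edgeR adjusted p 0.9999), in a test that called 0% of genes. In Mu mice Rbp4 was lower in the SCN than in the ARC, with a log2 difference of -0.50 ± 0.09 (SE, adjusted p 7.95e-05). In that contrast 61.7% of genes were called, 29.9% as higher and 31.8% as lower in the SCN, so a difference between regions is common.

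Ttr in the brain varied from library to library by far more than between arms. In the ARC it stood at 0.464, 3.83 and 11.2 CPM in Hu and at 0.586, 3.37 and 20.3 CPM in Mu (lowest, median and highest). In the SCN it stood at 0.132, 3.21 and 24.5 CPM in Hu and at 0.376, 3.52 and 13.97 CPM in Mu. Differences were 0.43 ± 0.42 (SE, adjusted p 0.999) in the ARC and -0.26 ± 0.67 (SE, adjusted p 0.9999) in the SCN. Ttr is the leading product of choroid plexus epithelium. The 10 markers listed for that tissue summed to 82.6 to 147 CPM in Hu ARC and 85.7 to 144 CPM in Mu ARC. In the SCN the sums were 71.9 to 157 CPM in Hu and 50.7 to 162 CPM in Mu. The same sum had medians of 734 CPM in Hu and 787 CPM in Mu livers, and 386 and 348 CPM in muscle. It is therefore no specific measure of choroid plexus. Among the 10 markers Folr1 reached 1.67 CPM in the ARC and 0.259 CPM in the SCN, and Kcnj13 reached 1.03 and 3.79 CPM. Kl, which other brain cells also express, reached 11.2 and 10.4 CPM. The part of choroid plexus in the Ttr values was not tested. In Mu ARC Ttr had an amplitude of 1.88 with a peak at ZT 17.1 (unadjusted p 0.00104, edgeR adjusted p 0.0613) and did not pass. It passed with DESeq2 (adjusted p 0.0115), with no filter on low counts (adjusted p 0.0475) and in 4 of 22 fits that each left out 1 library. In Hu ARC the amplitude was 1.03 (adjusted p 0.985). The 4 ARC libraries at ZT 18 also had the 4 highest ARC values of albumin (Alb), a gene of liver cells. These libraries held 46.2 and 20.5 CPM in Hu and 25.8 and 13.6 CPM in Mu, against medians of 0.171 and 0.216 CPM. Their Ttr was at 9.18 and 11.2 CPM in Hu and at 2.93 and 20.3 CPM in Mu, and the part of liver RNA in the ARC values was not tested. The difference in rhythm had an unadjusted p of 0.0129 (adjusted p 0.99996).

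**Figure D5:**
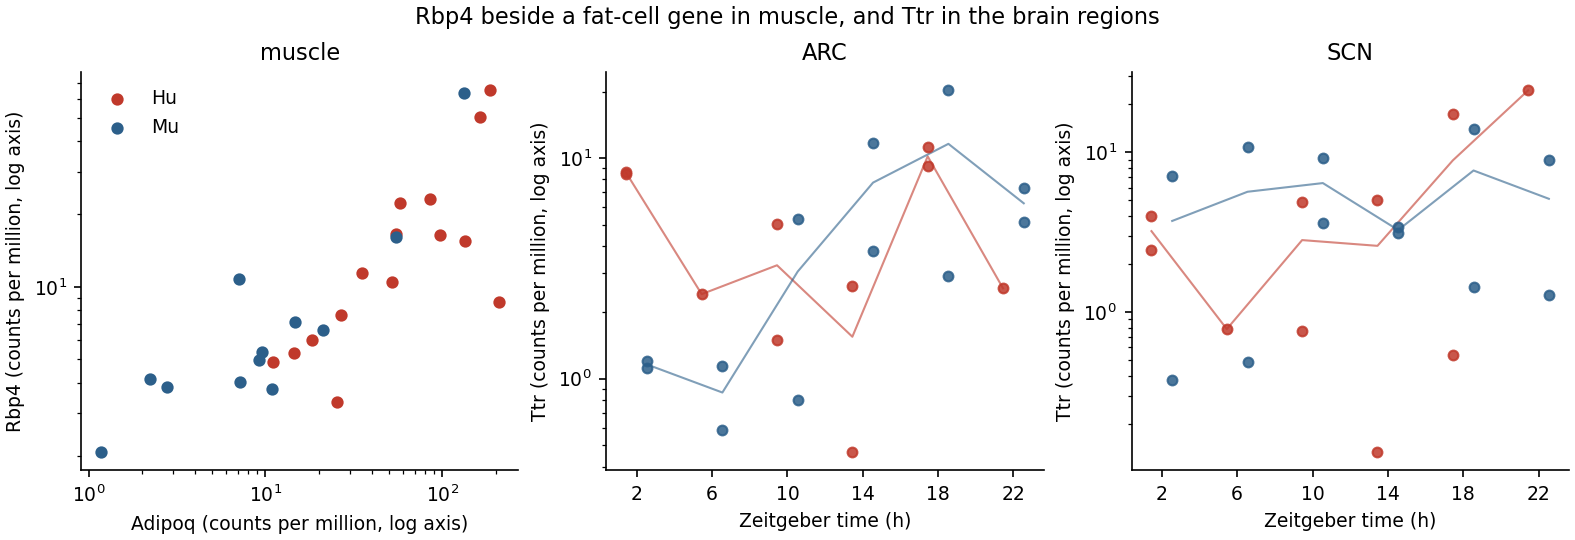
Left, Rbp4 against Adipoq (both in CPM, log axes) in each muscle library; middle and right, Ttr (CPM, log axis) against zeitgeber time (h) in the ARC and the SCN, with lines joining the means per time; red Hu, blue Mu. In muscle the libraries with the highest Rbp4, 65.1 in Hu and 63.2 in Mu, are rich in Adipoq, while the Hu library with the most Adipoq (208) has Rbp4 at 8.65, and Ttr ranges from 0.464 to 20.3 in the ARC and from 0.132 to 24.5 in the SCN.

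Muscle Rbp4 varied widely within both arms. It stood at 3.32, 11.4 and 65.1 CPM in Hu and at 2.06, 5.18 and 63.2 CPM in Mu (lowest, median and highest), with a difference of 0.79 ± 0.45 (SE, edgeR adjusted p 0.201). The sum of 6 fat-cell markers ranged from 224 to 3061 CPM in Hu (median 979) and from 127 to 2537 CPM in Mu (median 305). Of the 6, 4 were called higher in Hu, as were 13.5% of all muscle genes, with Adipoq higher by 2.28 ± 0.55 (SE). The Mu library with the highest Rbp4, at ZT 2, also had the highest Mu Adipoq (133 CPM), and without it the Rbp4 difference was 1.31 (adjusted p 0.0198). Without the Hu library with the highest Rbp4, at ZT 18, it was 0.49. The part of fat in these libraries was not tested.

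Ttr in muscle was too sparse to test. It had 0 to 624 counts in Hu and 0 to 1402 counts in Mu libraries, and 10 of 15 Hu and 3 of 12 Mu libraries were at 3 counts or fewer. The highest values were 17.6 CPM in a Mu library at ZT 14 and 9.08 CPM in a Hu library at ZT 18, and these libraries also had the highest albumin (Alb) in their arms, 106 and 79.9 CPM.

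Of the 36 retinoid genes 26 were tested in muscle; 4 were higher in Hu (Scarb1 by 0.49 ± 0.12, Lrat by 1.07 ± 0.30, Dgat1 by 0.78 ± 0.27 and Lipe by 1.11 ± 0.41, each ± SE) and 2 lower (Dhrs4 at -0.39 ± 0.11 and Rara at -0.25 ± 0.09), where 13.5% of genes were higher and 13.3% lower. Scarb1 is a lipoprotein and carotenoid receptor, and Dgat1 makes triglyceride and retinyl ester. With ZT as a factor in place of the cosine, Dgat1 (adjusted p 0.0788) and Lipe (adjusted p 0.115) were no longer called, and with matched replicate numbers alone Dgat1 (0.0719), Lipe (0.0766) and Rara (0.0726) were not. Leaving out 1 of the 27 muscle libraries ended the call of Dgat1 in 12 cases, of Lipe in 17 and of Rara in 10. In the ARC 28 were tested and in the SCN 27, and edgeR called 0 of them in each, against 0.00663% and 0% of all genes. In the ARC 3 had an unadjusted p under 0.05: Rdh10, a retinol dehydrogenase (0.16 ± 0.06 SE), Rarb, a retinoic acid receptor that is itself a target of retinoic acid (0.15 ± 0.07 SE), and Bco1 (-0.34 ± 0.14 SE). In the SCN 0 had one. Over all genes 4.24% in the ARC and 2.17% in the SCN had such a p. The list's median was -0.02 in the ARC and -0.04 in the SCN, against 0.00 over all genes in both.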

How the data were processed

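Bulk RNA libraries of 4 tissues were counted per gene. The authors deposited 2 tables of raw counts, whole numbers with no normalization. The submitters' processing notes name STAR and the builds GRCm38, mm10, GRCh38, hg38 and hg19, with no role or version; the counter, annotation and strand setting are not given in the sources used here. Groups and replicate numbers come from the labels; 2 Hu columns at ZT 22 carry no number that ties them to 1 sample. No 2 columns were identical.

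Each tissue was fitted alone with edgeR 4.0.16 in R 4.3.3 (filterByExpr by arm, TMM, quasi-likelihood F test; arm plus cosine and sine of 24 h per arm). In liver, mouse rows and human rows went into separate fits, scaled to their own totals. Mouse symbols were found for 19615 of 19689 rows of the liver table and 20329 of 20415 of the other; human genes were taken by Ensembl ID. log2 levels use a prior count of 2. Sums, ratios and correlations used 100000 permutations (Python 3.11.15, numpy 2.4.6). Intervals use a 95% level. Alternatives were other scalings, no filter, DESeq2 1.42.0, a replicate block, fewer libraries and each library left out. The fits were also run on simulated counts with few changed genes and the same spread for every gene. That setting differs from the livers, where most genes were called, so it does not test the liver fits. The members and gene lists were chosen with earlier results of these data known; of the retinoid list, up to 12 called genes with the smallest p per tissue are named, and in brain those with an unadjusted p under 0.05.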

Additional observations from a re-analysis of the deposited data

Results flagged for a closer look

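In the SCN, Stra6 of the Hu library at ZT 6 stood apart from the other 9 Hu libraries at 16.9 CPM. On linear CPM its gap to the next library was 0.482 of the group's whole range, above the critical value of 0.466 for 10 samples. It was 1 of 6 groups of 10 libraries examined in this way. For normally distributed values chance puts about 1 in 20 such groups past that value. The gap was not examined on the log2 scale of the fits, so the flag holds for linear CPM alone.

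Human rows of the Mu livers, which received no human cells, held counts of both carriers. They enter the sums over both species and are in no test of their own. The highest were 97 counts for RBP4 and 40 counts for TTR, in the Mu liver at ZT 6 with the largest human share, and every Mu liver was above 3 counts for both genes. Human rows held between 0.00592% and 0.0204% of the counts of these livers.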

How the results depend on the processing

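Stra6 in liver and Ttr in muscle were not tested, with 3 counts or fewer in many libraries, and the brain tests rest on 10 Hu libraries. Stra6 in the ARC stayed between 1.23 and 1.42 under 7 other settings and between 1.30 and 1.51 with each library left out. In the SCN it stayed between 0.81 and 1.101 under other settings, and between 0.89 and 1.22 with each library left out, where the adjusted p stayed above the threshold (0.431 at the lowest); the exact permutation gave 1.05. Rbp4 in liver ranged from -1.40 to -0.72 and Ttr from -1.45 to -0.74, lowest in size with library totals, and both kept their calls.

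In the ARC DESeq2 called 14 genes, matched replicate numbers gave 0, and leaving out 1 library gave 1 to 2. In the SCN DESeq2 called 1, and leaving out 1 library gave 0 to 1. Of the retinoid genes, 9 were lower in liver with library totals. In muscle 2 were higher with the replicate block, 2 with matched numbers and 2 with ZT as a factor; 1 was lower with the replicate block and 1 with matched numbers (with the block Dgat1 had an adjusted p of 0.0997, Lipe 0.102 and Rara 0.0677). Leaving out 1 muscle library gave 2 to 5 higher and 1 to 2 lower, and an Rbp4 difference from 0.49 to 1.31. Ttr rhythm in Mu ARC passed with no filter on low counts (adjusted p 0.0475) and with DESeq2 (0.0115). The cause of these changes was not tested.

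With TMM factors over all rows the TTR sum difference was 0.12 and the RBP4 sum difference 1.69, as the same factor per library moves both sums alike. With human and mouse levels both taken per all rows, some correlations changed sign. Human RBP4 had r = -0.687 with mouse Rbp4, -0.719 with mouse Ttr and 0.946 with the human share. Human TTR had 0.605 with the share, and human RBP4 and TTR had r = 0.593. Levels per all rows hold the share of their species as a factor, so these r values follow in part from the denominator.

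Same-numbered libraries did not deviate together throughout (lowest correlation -0.159 in the ARC, -0.275 in the SCN, 0.0129 in liver, -0.145 in muscle), so the numbers are taken as names. With the replicate block Stra6 was at 1.31 in the ARC and 1.03 in the SCN, the RBP4 sum at 0.46 and the TTR sum at -1.08. Library totals, the exact permutation and the ratio without 1 liver were chosen after seeing the data.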
